A study of Homo sapiens with 6 samples.

Results

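The enzymes that make asparagine, cysteine and proline, together with mitochondrial phosphoenolpyruvate carboxykinase, were followed in HEK293t cells with and without knockdown of linc00598. HEK293t is a line derived from human embryonic kidney that expresses the SV40 large T antigen. The genes ASNS, PCK2, CTH, CBS, PYCR1, ALDH18A1, GPT2 and GOT1 were listed by name and were chosen by their place in these pathways and from earlier results of the knockdown lines against the control on these arrays. The values against the control are therefore a description with no test. Of the 8 symbols, 7 are paired with a probe in the annotation used here, and all 7 passed the detection filter, out of 17225 genes and unnamed probes. GPT2, a mitochondrial alanine aminotransferase, was not analysed here. Total RNA came from 3 stable HEK293t lines: shCTL, which carries a control shRNA, and shlinc00598#2 and shlinc00598#3, which carry different shRNAs against the long noncoding RNA linc00598. The shRNAs were delivered with a lentivirus, and the sources used here do not say whether a line is 1 clone or how long the cells had been in culture. Each line was read on 2 Illumina HumanHT-12 v4 arrays, called replicate 1 and replicate 2, and the labels do not say whether these were separate cultures, so the spread between them may be technical.

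When an amino acid runs short, uncharged transfer RNA activates the kinase encoded by EIF2AK4, general translation slows, and the transcription factor ATF4 accumulates. ATF4 pairs with C/EBP proteins and binds a composite DNA element in genes for amino acid synthesis, uptake and transfer RNA charging. ASNS, CTH and PCK2 are well known targets of this response. Endoplasmic reticulum stress reaches ATF4 through another kinase, encoded by EIF2AK3.

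The promoter of ASNS holds the textbook example of such an element, so the bases before the start of the 3 genes with the largest differences below are shown with a GOT1 window. The core of the element was searched as TGATGNAA, and the cyclic AMP response element as TGACGTCA, on both strands, in 300 bases around each start (250 before and 50 after, RefSeq, GRCh38.p14). Windows were at hand for 6 of the 8 genes, 9 windows in all (2 for ASNS and 3 for CBS). The sequences run 5′ to 3′ on the strand of the gene and capitals mark a match to TGATGNAA.
ASNS chr7:97872409-97872528, minus strand, 120 bases before the start: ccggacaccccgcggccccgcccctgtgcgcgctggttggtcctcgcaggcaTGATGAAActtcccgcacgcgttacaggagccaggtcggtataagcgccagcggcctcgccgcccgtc
PCK2 chr14:24094191-24094310, plus strand, 120 bases before the start: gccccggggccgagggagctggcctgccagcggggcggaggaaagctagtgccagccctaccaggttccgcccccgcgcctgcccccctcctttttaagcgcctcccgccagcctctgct
CTH chr1:70411148-70411267, plus strand, 120 bases before the start: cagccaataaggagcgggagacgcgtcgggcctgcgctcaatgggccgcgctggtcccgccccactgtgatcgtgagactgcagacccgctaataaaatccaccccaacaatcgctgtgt
GOT1 chr10:99430799-99430838, minus strand, 40 bases: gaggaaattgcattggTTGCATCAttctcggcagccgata
In the first ASNS window the match lay 68 to 61 bases before the start, and in the GOT1 window it lay 198 to 191 bases before the start on the opposite strand. The other 7 windows held no match to either motif. Of all 35116 windows of this length, 3.62% held TGATGNAA and 1.85% held TGACGTCA. A match is a description of the letters and not a site of binding.

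Between 20864 and 22134 of the 47321 probes were detected per array, and median intensities ran from 105.4 to 126.2. All 6 arrays lay on 1 BeadChip, with replicate 1 on its first 3 positions, so replicate and position cannot be told apart. No probe is paired with linc00598 in the annotation used here, so its depletion was not checked on these arrays. The paper measured its level by quantitative PCR in control and shlinc00598 stable lines. Of 6 genes expected in HEK293t cells, VIM, KRT8, KRT18, NEFL and NEFM were detected on all arrays and PAX2 on none. Of 10 measured markers of hepatocyte, erythroid, monocytic and fibroblast cells, ALB, HBZ and CD14 were detected on all arrays. The deposited table of processed values names its columns by sample, and 4 of its 6 columns hold the values of an array that the sample descriptions assign to another line or replicate. The values below follow the descriptions. With the columns taken by their headers the direction of several results turned. Values of single arrays and differences within a replicate are given by the descriptions only, except where stated. Which assignment is right was not tested.

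In the knockdown lines ASNS, PCK2 and CTH were lower than in shCTL when both replicates were averaged, and most of that difference lay in replicate 2. In replicate 1 the 3 genes stood within 0.30 of the control array on the log2 scale in both lines. In replicate 2 they were lower by 1.04 to 1.86. This holds under the sample descriptions. By the column headers, the shCTL column of replicate 2 holds the array described as shlinc00598#2 replicate 2. ASNS and PCK2 are then higher than shCTL in both lines in replicate 2, and CTH in shlinc00598#2 only. All values are log2 intensities after quantile normalization unless stated otherwise, so a difference of 1 is a 2-fold change.

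ASNS encodes asparagine synthetase, which forms asparagine from aspartate and glutamine. In replicate 1 its log2 intensity was 14.37 in shCTL, 14.44 in shlinc00598#2 and 14.30 in shlinc00598#3. In replicate 2 it was 13.62 in shCTL, 12.40 in shlinc00598#2 and 12.58 in shlinc00598#3. The 3 arrays of replicate 1 lay together, all arrays of replicate 2 lay below them, and both knockdown arrays of replicate 2 lay below their control. On the linear scale before normalization the 6 intensities were 20850, 21870 and 18340 in replicate 1 and 12330, 5559 and 6410 in replicate 2, in the same order of lines. The mean of both lines was lower than shCTL by a log2 fold change of -0.57, a 1.48-fold difference, where the line means were 13.998 in shCTL (SD 0.53, n = 2), 13.42 in shlinc00598#2 (SD 1.44) and 13.44 in shlinc00598#3 (SD 1.22). This difference was smaller than the spread between the replicates of a knockdown line.

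GOT1, the cytosolic aspartate aminotransferase, interconverts oxaloacetate and aspartate. Its log2 intensity was 12.42, 12.58 and 12.42 in shCTL, shlinc00598#2 and shlinc00598#3 in replicate 1. The values were 12.003, 11.89 and 11.88 in replicate 2. The knockdown and control arrays of a replicate lay close together, and the replicates did not overlap. The log2 fold change of the mean of both lines was -0.02 (0.04 with median scaling, 0.19 without shCTL replicate 1, and 0.15 or 0.12 without the replicate 2 array of shlinc00598#2 or shlinc00598#3).

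CTH encodes cystathionine gamma-lyase, which releases cysteine from cystathionine in the last step of transsulfuration. Its log2 intensity in replicate 1 was 12.17 in shCTL, 12.46 in shlinc00598#2 and 12.11 in shlinc00598#3. In replicate 2 it was 11.27, 9.83 and 9.67 in the same order. The shCTL mean was 11.72 (SD 0.63, n = 2), that of shlinc00598#2 11.15 (SD 1.86) and that of shlinc00598#3 10.89 (SD 1.72). The mean of both lines was 1.62-fold lower than shCTL (log2 fold change -0.70), less than the spread between the replicates of a knockdown line. CTH spanned 2.79 on the log2 scale over the 6 arrays, the widest of the 7 genes.

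CBS encodes cystathionine beta-synthase, which forms the cystathionine that CTH cleaves. Its log2 intensity was 13.67 in shCTL, 13.64 in shlinc00598#2 and 13.48 in shlinc00598#3 in replicate 1. It was 13.44, 13.07 and 13.06 in replicate 2. In replicate 2 the knockdown arrays differed from the control by -0.38 and -0.39, smaller differences than those of CTH, and the replicates did not overlap. The log2 fold change of the mean of both lines was -0.25. A near-identical copy of CBS is annotated in this genome build, and whether the probe can tell them apart was not tested.

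PYCR1 encodes a mitochondrial pyrroline-5-carboxylate reductase, the last enzyme of proline synthesis. Its log2 intensity in replicate 1 was 12.23 in shCTL, 12.44 in shlinc00598#2 and 12.30 in shlinc00598#3. In replicate 2 it was 12.01, 11.51 and 11.77. Both knockdown arrays lay above the control array in replicate 1 and below it in replicate 2, and the log2 fold change of the mean of both lines was -0.12 (0.12 without shlinc00598#2 replicate 2 and 0.02 without shlinc00598#3 replicate 2).

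ALDH18A1 encodes the enzyme that turns glutamate into the precursor on which PYCR1 acts. Its log2 intensity was 11.25, 11.30 and 11.26 in shCTL, shlinc00598#2 and shlinc00598#3 in replicate 1. It was 11.28, 11.54 and 11.37 in replicate 2. The values spanned 0.29 over the 6 arrays, the narrowest of the 7 genes, and the replicates overlapped. The log2 fold change of the mean of both lines was 0.10.

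PCK2 encodes the mitochondrial phosphoenolpyruvate carboxykinase, which makes phosphoenolpyruvate from oxaloacetate. Its log2 intensity in replicate 1 was 11.93 in shCTL, 11.82 in shlinc00598#2 and 11.74 in shlinc00598#3. In replicate 2 it was 11.30 in shCTL, 9.44 in shlinc00598#2 and 9.60 in shlinc00598#3. The knockdown arrays of replicate 2 stood far below the other 4. The shCTL mean was 11.62 (SD 0.45, n = 2), beside 10.63 (SD 1.68) for shlinc00598#2 and 10.67 (SD 1.52) for shlinc00598#3. The mean of both lines was 1.95-fold lower than shCTL (log2 fold change -0.96), the largest such difference among the 7 genes. It was smaller than the spread between the replicates of a knockdown line.

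**Figure D1:**
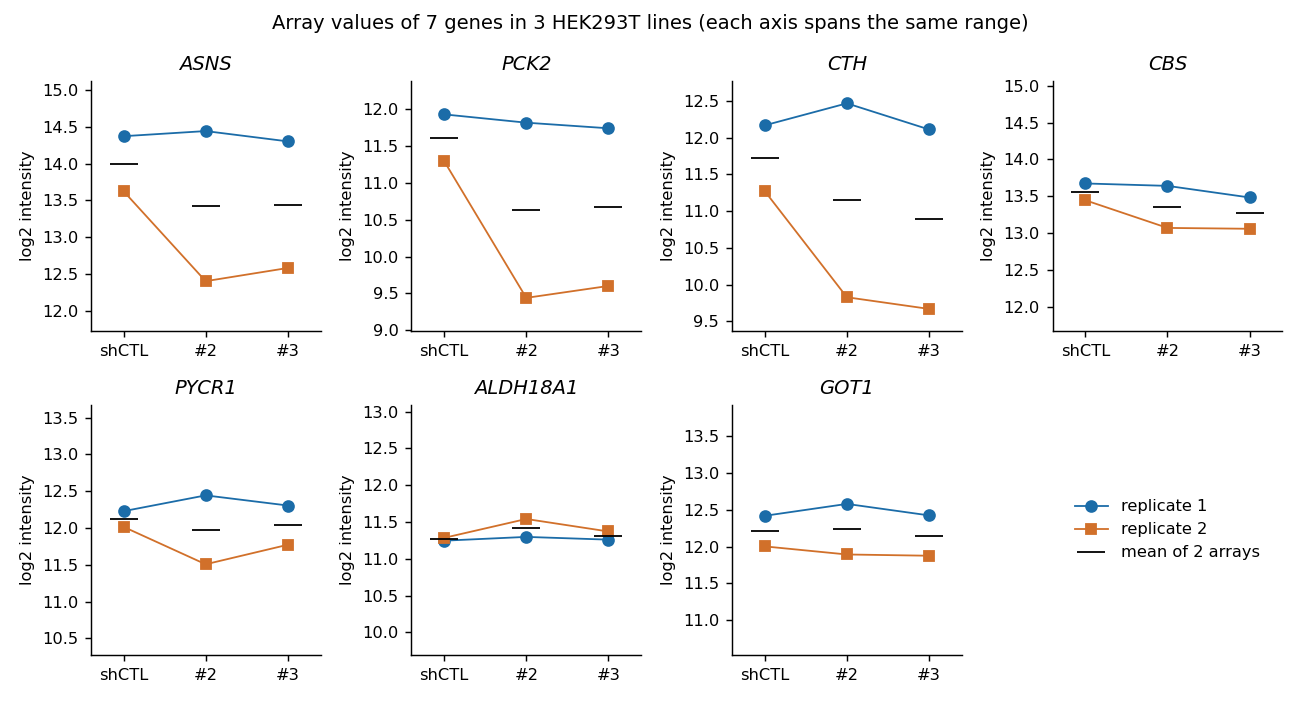
Log2 intensity (vertical axis) of 7 genes in the lines shCTL, shlinc00598#2 and shlinc00598#3 (horizontal axis), with 1 point for each array, lines joining the arrays of a replicate and black bars for the mean of 2 arrays. For ASNS, PCK2 and CTH the knockdown arrays of replicate 2 lie apart from the other 4, while ALDH18A1 spans 0.29.

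By the factor of 1.4 that the study used, ASNS, PCK2 and CTH passed as lower in the mean of both lines, 3 of 7, where 0.627% of all genes and unnamed probes did. None of the 7 passed as higher, where 0.261% of all did. The same 3 passed in shlinc00598#2 taken alone (1.11% of all) and in shlinc00598#3 taken alone (0.946% of all). These comparisons share the control arrays and were used to choose the genes, so nothing is read from the counts. The median log2 fold change of the 7 genes was -0.25, beside 0.00 for all. For 0 of the 7 did all knockdown arrays lie below both control arrays (5.56% of all did). The count of 3 became 1 (PCK2) without shCTL replicate 1, and 0 without shlinc00598#2 replicate 2 or without shlinc00598#3 replicate 2. Without shlinc00598#2 replicate 2 the log2 fold changes were -0.06 for ASNS, -0.37 for PCK2 and -0.04 for CTH, and without shlinc00598#2 replicate 1 they were -1.08, -1.56 and -1.36. With the processed table read by its column headers the count was 0, and the log2 fold changes were 0.35 for ASNS, 0.43 for PCK2 and 0.38 for CTH, the opposite direction. The signs of the other 4 genes turned too, to 0.04 for CBS, 0.27 for PYCR1, 0.06 for GOT1 and -0.09 for ALDH18A1.

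Within replicate 1 the log2 differences from shCTL in shlinc00598#2 and shlinc00598#3 were 0.07 and -0.07 for ASNS. They were 0.30 and -0.06 for CTH. For PCK2 they were -0.11 and -0.19. None of the 7 genes was at least 1.4-fold lower in the mean of both lines there, where 1.35% of all were.

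Within replicate 2 the differences were -1.22 and -1.04 for ASNS. For CTH they were -1.44 and -1.60. For PCK2 they were -1.86 and -1.70. As means of both lines these were 2.19-fold, 2.87-fold and 3.43-fold lower. The values of the 2 lines, set against the same control array, lay within 0.18 of each other for each of these genes. The genes were chosen with results of both lines known, so nothing is read from this likeness. In replicate 2, 3 of the 7 genes passed as at least 1.4-fold lower (1.47% of all). Each value compares 1 array with 1 array, and the difference between the replicates in this effect was not tested. The median over the 7 genes was 0.03 in replicate 1 and -0.38 in replicate 2, beside 0.00 for all genes in both.

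**Figure D2:**
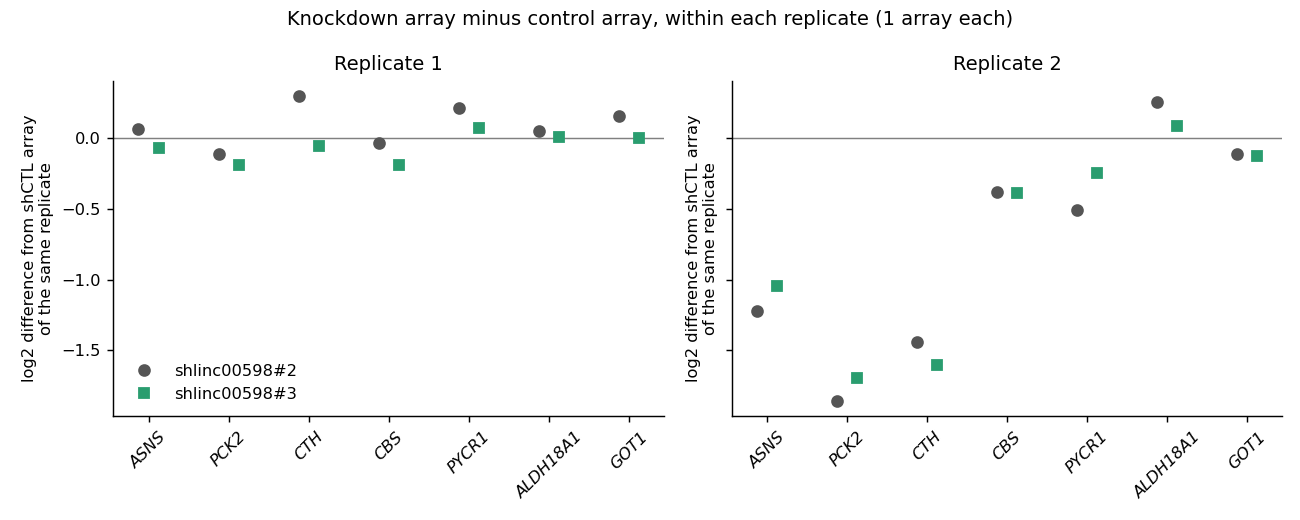
Log2 difference of each knockdown array from the shCTL array of the same replicate (vertical axis) for 7 genes (horizontal axis), with replicate 1 on the left, replicate 2 on the right, circles for shlinc00598#2 and squares for shlinc00598#3. In replicate 2 ASNS, PCK2 and CTH lie between -1.04 and -1.86, and in replicate 1 all points lie between -0.19 and 0.30.

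The contrast between the replicates was not itself used to choose the genes and was tested with limma across all genes, with the line as a term. For ASNS, PCK2 and CTH the low knockdown arrays of replicate 2 enter both this contrast and the one used to choose. The counts and p-values below are therefore not free of that choice. Replicate 2 was lower than replicate 1 for 6 of the 7 genes, where 17.8% of all genes and unnamed probes were called lower and 18.8% higher, and 0 of the 7 were called higher. CTH fell by 1.99 on the log2 scale (standard error 0.27, limma adjusted p = 0.000592), or 3.97-fold. PCK2 fell by 1.72 (standard error 0.27, limma adjusted p = 0.00115). ASNS was 2.83-fold lower (log2 standard error 0.20, limma adjusted p = 0.000539). The log2 difference was -0.56 for PYCR1 (limma adjusted p = 0.00777) and -0.55 for GOT1 (limma adjusted p = 0.0015). It was -0.41 for CBS (limma adjusted p = 0.0085), which was not called without either array of shlinc00598#2. ALDH18A1 was not called, with a log2 difference of 0.13 (standard error 0.09, limma adjusted p = 0.276). For the same 6 genes all 3 arrays of replicate 2 lay below all 3 of replicate 1, as did 20.5% of all. A replicate is 1 occasion shared by the 3 lines, so this test shows that the difference recurred in each line, and not that it would recur in another pair of replicates. With the processed table read by its column headers, 0 genes were called in this contrast, in place of 6303.

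For 6 of the 7 genes replicate 2 was lower in the control line too, by less than in either knockdown line. From replicate 1 to replicate 2 ASNS differed by -0.75 in shCTL, by -2.04 in shlinc00598#2 and by -1.72 in shlinc00598#3. CTH differed by -0.89, -2.64 and -2.44. PCK2 differed by -0.64, -2.38 and -2.14. For CBS and PYCR1 too the control line showed the smallest difference, -0.23 and -0.21, while GOT1 had -0.42 in shCTL beside -0.69 and -0.55. These are differences of single arrays, with no test.

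**Figure D3:**
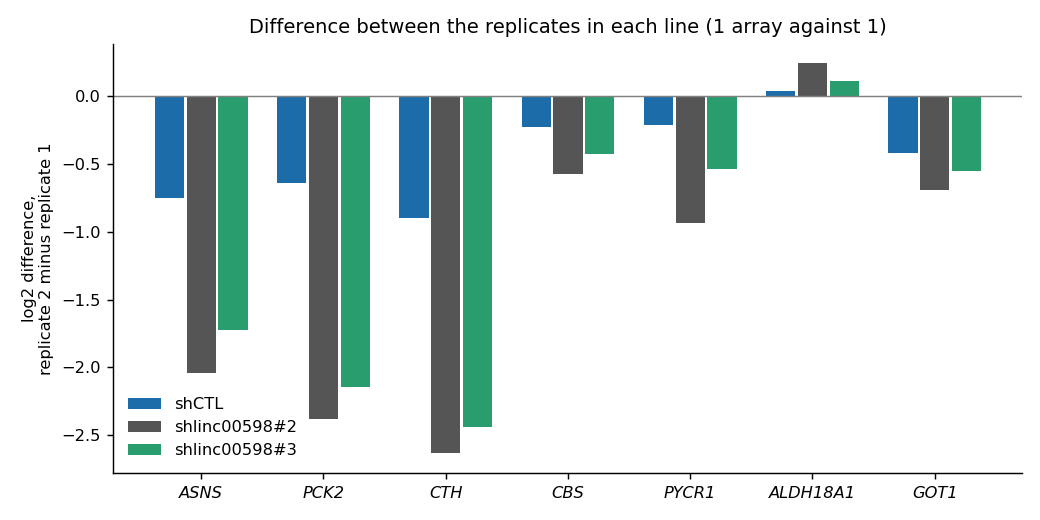
Log2 difference between replicate 2 and replicate 1 (vertical axis) in each line for 7 genes (horizontal axis), as bars from 0 for 1 array against 1 array. The bars of the knockdown lines reach -2.64 for CTH, -2.38 for PCK2 and -2.04 for ASNS, where those of shCTL reach -0.89, -0.64 and -0.75.

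The mean values of the 2 knockdown lines differed by at most 0.26 on the log2 scale for each of the 7 genes. Tested against each other with limma, 0 of all genes were called (0%), and 0 of the 7, with 204 of all at an unadjusted p under 0.05. The difference, shlinc00598#2 minus shlinc00598#3, was -0.02 for ASNS (95% interval -2.07 to 2.04), -0.04 for PCK2 (-2.46 to 2.37) and 0.26 for CTH (-2.47 to 2.99). The interval was narrowest for ALDH18A1, at 0.10 (-0.25 to 0.46). The shift shared by all lines from replicate 1 to replicate 2 is part of these intervals. In a fit that takes it out as a replicate block they narrowed to -0.57 to 0.53 for ASNS, -0.78 to 0.69 for PCK2, -0.48 to 0.997 for CTH and -0.14 to 0.34 for ALDH18A1, and again 0 genes were called, with 1481 of all at an unadjusted p under 0.05.

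Further probes of these genes gave the same direction for ASNS, CTH and PCK2 in replicate 2 and over both replicates. In the mean of both lines in replicate 2, the second ASNS probe, ILMN_2398107, stood at -0.92 from the control. Those of CTH, ILMN_1777060 and ILMN_2305116, stood at -1.29 and -1.03. The dimmer PCK2 probes, ILMN_1760649 and ILMN_1802699, stood at -1.18 and -0.65. In replicate 1 these 5 probes lay between -0.12 and 0.35. There ILMN_1760649 had 0.255, where the bright PCK2 probe had -0.15. Over both replicates only the ASNS probe among them, at -0.52, passed the factor of 1.4 (0.485 on the log2 scale) as lower. ILMN_1777060 and ILMN_2305116 had -0.47 and -0.36, and ILMN_1760649 and ILMN_1802699 had -0.46 and -0.33. For CTH and PCK2 the count by this factor thus rests on the brightest probe or on the average of the probes. With the probes of a gene averaged, the log2 fold change over both replicates was -0.59 in place of -0.96 for PCK2 and -0.51 in place of -0.70 for CTH. For PYCR1 the probes disagreed: the bright probe ILMN_1796013 described above had 0.15 in replicate 1, where the dim ILMN_1715178 had -0.32 and the dim ILMN_2395092, detected on 5 arrays, 0.57.

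Other genes of the same pathways were taken from 6 lists of 59 genes put together by function, with earlier results of these data known, of which 42 passed the detection filter. With limma, 0 of the 42 were called between the mean of both lines and the control, and 0 of all genes (0%), with 329 of all and 0 of the 42 at an unadjusted p under 0.05. With the replicate as a block, 1 of all genes and 0 of the 42 were called, with 2360 and 9 at an unadjusted p under 0.05. Standard errors of fold changes below are those without the block. Between the replicates 12 of the 42 were called lower and 8 higher, beside 17.8% and 18.8% of all genes and unnamed probes. The same shares stand beside the counts of each list below, which are too small to be read against them.

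Among 5 measured genes of asparagine, aspartate and glutamine metabolism, none was 1.4-fold different in the mean of both lines, with a median log2 fold change of -0.05. GLUD1, glutamate dehydrogenase, had -0.11 (standard error 0.14) and NIT2, an omega-amidase, -0.10. Between the replicates 1 of 5 was called, lower.

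Among 11 genes of the methionine cycle and of cysteine and glutathione synthesis, the median log2 fold change was 0.07. MAT2A, which makes S-adenosylmethionine, had 0.30 (standard error 0.49) and MTR, methionine synthase, 0.26. Between the replicates 3 were called lower and 2 higher. MAT2A rose by 1.06 (standard error 0.10, limma adjusted p = 9.90e-05), while CTH and CBS fell.

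Among 4 genes of proline and ornithine metabolism, the median log2 fold change was 0.01. ALDH4A1, which degrades the proline precursor to glutamate, had 0.15 and PYCR3, a further pyrroline-5-carboxylate reductase, 0.09. Between the replicates 3 of 4 were called higher (18.8% of all were) and 0 lower, among them PYCR3 (log2 difference 0.52, limma adjusted p = 0.00158) and ALDH4A1 (0.38).

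Among 5 genes of the malate-aspartate shuttle the median log2 fold change was 0.06. SLC25A13, a mitochondrial aspartate-glutamate carrier, had 0.36 (standard error 0.19), and SLC25A11, the oxoglutarate carrier, 0.16. Between the replicates 1 was called, higher. Among 5 genes around phosphoenolpyruvate and pyruvate the median was 0.00, with -0.04 for G6PC3, a glucose-6-phosphatase, and 0.03 for MPC2, a subunit of the mitochondrial pyruvate carrier. Between the replicates 1 of these was called lower and 1 higher.

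Of the 12 regulators of the amino acid response, ATF3, DDIT3 and CEBPG were at least 1.4-fold lower in the mean of both lines (log2 fold changes -0.87, -0.70 and -0.50), where 0.627% of all genes and unnamed probes were. The list was put together with earlier results of these data known, so nothing is read from this count. Each of these differences was larger in replicate 2 than in replicate 1. With the columns taken by their headers none of these genes passed as lower. Between the replicates 7 of the 12 were called lower (17.8% of all) and 1 higher (18.8% of all). ATF3, a stress-induced transcription factor, had log2 intensities of 14.69, 14.14 and 14.41 in shCTL, shlinc00598#2 and shlinc00598#3 in replicate 1 and of 11.57, 10.17 and 10.31 in replicate 2. It fell by 3.73 between the replicates (standard error 0.16, limma adjusted p = 3.57e-06), and its log2 fold change in the mean of both lines was -0.87 (standard error 1.67). DDIT3, a stress-induced factor of the C/EBP family, had 9.87, 9.79 and 9.59 in replicate 1 and 9.33, 8.03 and 8.18 in replicate 2.

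DDIT3 fell by 1.24 between the replicates (standard error 0.19, limma adjusted p = 0.00102), and its difference from shCTL was -0.18 in replicate 1 and -1.22 in replicate 2, as means of both lines. The transcript of ATF4 itself had log2 intensities of 14.50, 14.60 and 14.39 in replicate 1 and of 14.47, 14.15 and 14.20 in replicate 2. It was not called between the replicates (log2 difference -0.22, standard error 0.10, limma adjusted p = 0.113), and arrays of messenger RNA do not read its translation. ATF4 was set beside the 7 genes since the response described above acts through it. DDIT3 was named as it is among the 2 regulators with the largest fold change in the mean of both lines. ATF4 and CEBPG were named after their values were seen.

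**Figure D4:**
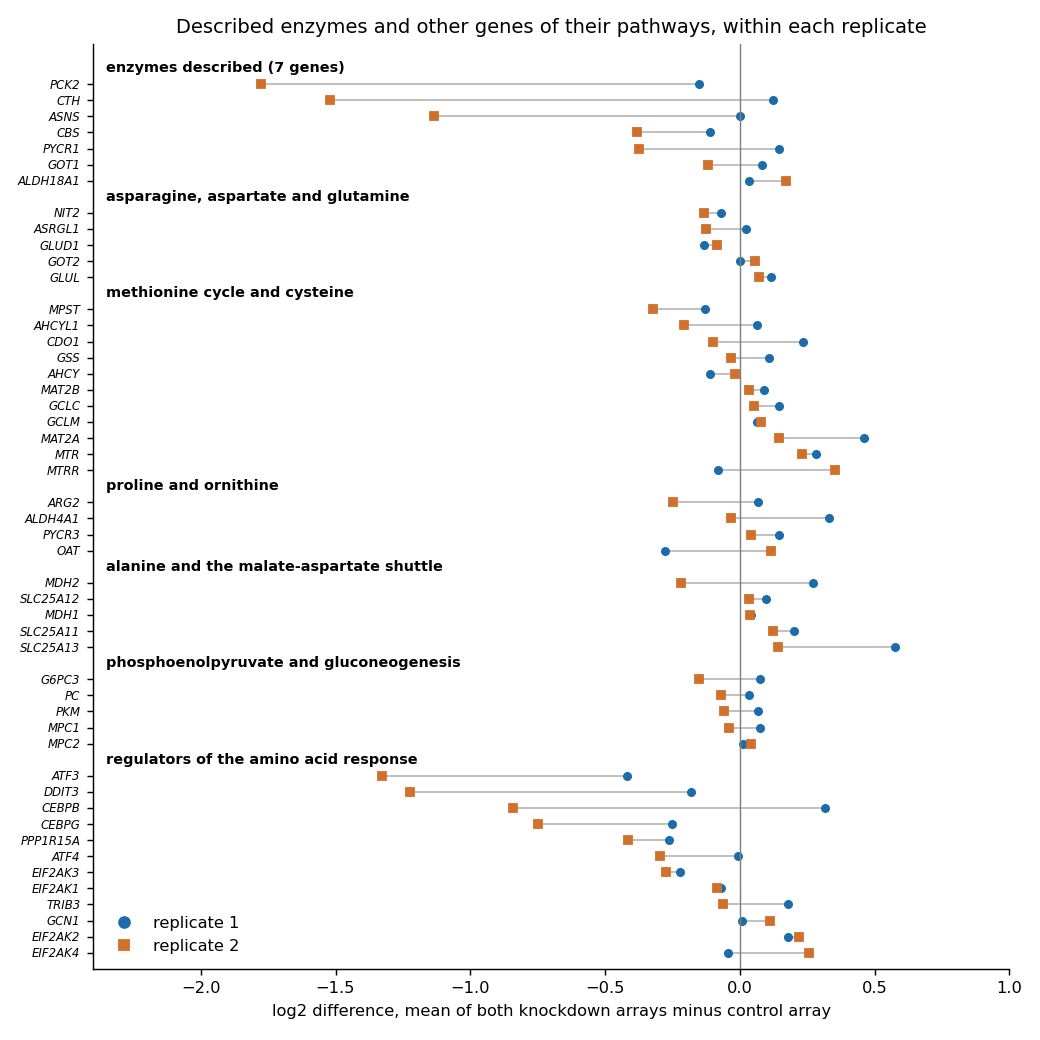
Log2 difference of the mean of both knockdown arrays from the shCTL array (horizontal axis) within replicate 1 (circles) and replicate 2 (squares), for the 7 genes and the 42 other measured genes of 6 pathway lists (vertical axis). PCK2, CTH and ASNS lie at -1.78, -1.52 and -1.13 in replicate 2, with DDIT3 at -1.22 and ATF3 at -1.33.

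The genes whose arrays were ordered most like those of ASNS, PCK2 and CTH were sought among the named genes that span at least 1 on the log2 scale, by Pearson's r over the 6 arrays. The 6 arrays share 1 chip and the difference between the replicates, so the coefficients describe these arrays only. The 5 nearest to ASNS were YARS1 (r = 0.99), which encodes a cytosolic tyrosyl-transfer RNA synthetase, ULBP1, a ligand of natural killer cells, CTH, SLC3A2, the heavy subunit of amino acid transporters, and DDIT3. The lowest of these 5 coefficients was 0.9895. The 5 nearest to PCK2 were DDIT3, ATP6AP1L, SLC2A10, a glucose transporter, ASNS and DDR2, a collagen receptor (r from 0.9831 to 0.9977). The 5 nearest to CTH were ASNS, TCEA2, SLC38A1, a transporter of small neutral amino acids, ZNF536 and PSPH, the last enzyme of serine synthesis (r from 0.9893 to 0.9932). ASNS, PCK2 and CTH correlated with each other at r of 0.9932 for ASNS with CTH and 0.989 for ASNS with PCK2. ULBP1 differed from shCTL by 0.09 in replicate 1 and by -1.20 in replicate 2, in the mean of both lines, close to the values of ASNS.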

How the data were processed

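Total RNA from the 3 lines was read on Illumina HumanHT-12 v4 arrays, which the authors scanned and exported with GenomeStudio v2011.1. The deposited table before normalization gives each probe an average intensity on every array together with a detection p-value, and its columns were tied to a line and replicate through the sample descriptions. The deposited processed table holds log2 intensities that the authors had quantile-normalized; its columns were read by their headers as an alternative. Quantile normalization was run here on the intensities (limma 3.58.1, R 4.3.3), log2 values were taken, and background was not subtracted. A probe entered if 1 line or more had detection p below 0.05 on each of its 2 arrays, as did 21282 of 47321 probes. In the annotation 30113 probes carry 1 symbol, 8 several and 17200 none; symbols were updated through the Entrez number with RefSeq's table. Each gene is represented by the brightest such probe, and probes lacking a unique symbol are kept as separate features. The number of arrays limits the precision.

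Lines were compared in 1 limma fit with the line as the factor (3 residual degrees of freedom), and replicates in a fit with line and replicate as terms (2 residual degrees of freedom). The Benjamini-Hochberg adjustment ran over the full set of 17225 genes and unnamed probes, with a threshold of 0.05. The arrays of a replicate shared their deviations from the line means (r of 0.742, 0.76 and 0.827 between lines, across genes), so the replicate number was taken to pair them, and values with it as a block stand beside the line comparisons. The labels do not say what a number marks. The line fit without the block and the replicate fit were first run on simulated data. There the arrays varied independently, without the shared deviations, and the fit with the block was not simulated. The genes described and the pathway lists were chosen with earlier results of these data known; the genes named are the 8 symbols, up to 2 of each list with the largest fold change in the mean of both lines, and the 5 genes nearest to ASNS, PCK2 and CTH. ATF4, CEBPG, PKM, OAT, GCLM and PPP1R15A fall outside this rule and were named after their values were seen. Alternatives were neqc background correction (offset 16), median scaling, the processed table, other detection filters, the mean of a gene's probes, the replicate as a block, no term for the line, the methods' t-test and each array left out in turn.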

Additional observations from a re-analysis of the deposited data

Results flagged for a closer look

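In 2 of the described genes both knockdown arrays moved one way in replicate 1 and the opposite way in replicate 2, by sign alone. The share of all genes that did so was not counted. Both lines of a replicate are set against the same control array, so nothing is read from the count. PYCR1 stood 0.21 and 0.08 above the control array in shlinc00598#2 and shlinc00598#3 in replicate 1 and differed by -0.51 and -0.24 in replicate 2, a change of -0.52 in the mean of both lines. GOT1 stood 0.16 and only 0.0055 above it in replicate 1 and differed by -0.11 and -0.13 in replicate 2, a change of -0.20. Each value rests on single arrays, and the difference between the replicates in these effects was not tested. The 2 dim PYCR1 probes did not share 1 order of the arrays.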

How the results depend on the processing

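The 3 genes at least 1.4-fold lower in the mean of both lines were 3 under neqc, median scaling, either other detection filter, averaged probes and the replicate block, and from 0 to 3 with 1 array left out. With the processed table by its column headers the count was 0, the count of genes called between the replicates 0 and that of the described genes called there 0. That count of all genes, 6303 as reported, ran from 4024 to 6596 with 1 array left out, and that of the described genes from 5 to 6. In this contrast leaving out either array of a line gave the same values. With the line as a term, the array that remains of that line says nothing of the replicates, so each such fit is 1 without the whole line. Between the knockdown lines the methods' t-test called 1 gene after Benjamini-Hochberg adjustment (565 at an unadjusted p under 0.05), where limma called 0 under each setting. Of the other pathway genes 0 were called between the lines' mean and the control under each setting. By the headers the differences between the replicates were -1.05 for ASNS, -1.42 for PCK2 and -1.43 for CTH, none of them called, and the 4 reassigned columns are what differs in that setting. The replicate block left the fold changes as they were and called 0 of the other pathway genes; over all genes it called 1 against the control in place of 0, and 0 between the lines. It changed no other call. With 2 arrays per line and no block, a difference well under the spread between replicates was not detectable.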

Other observations

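Several metabolic genes of the lists moved opposite to ASNS, PCK2 and CTH between the replicates, in the same fit. Of the 42 measured genes of the lists 8 were called higher and 12 lower, with metabolic genes among both. Of all genes and unnamed probes 18.8% were called higher and 17.8% lower, so nothing is read from the direction of the genes named here. PKM, pyruvate kinase, rose by 0.84 on the log2 scale from replicate 1 to replicate 2 (limma adjusted p = 0.000153), OAT, ornithine aminotransferase, by 0.77 (0.000558) and GCLM, a subunit of the first enzyme of glutathione synthesis, by 0.55 (0.000987). PPP1R15A, which directs the phosphatase that ends the stress response, fell by 2.09 and CEBPG, a partner of ATF4, by 1.48. These genes were named after their values were seen.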
